A study of Mus musculus with 8 samples.

Results

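The vomeronasal type 2 receptor genes, whose symbols start with Vmn2r, were followed as a family through the nuclear compartments of mouse embryonic stem cells (mESCs). Members were taken as the protein-coding Vmn2r genes on the autosomes in the GENCODE vM21 annotation of the mm10 genome, which gave 121 of 20807 autosomal protein-coding genes. Each gene took the compartment score of the 100-kb bin that holds the lower coordinate of the gene. The 121 genes fell in 98 bins, of which 97 were scored in all 8 libraries, out of 23972 bins scored in all of them, and each bin was counted once. Up to 3 members shared a bin, and 21 bins held more than 1. The bin of Vmn2r46 on chromosome 7 had no score in any library, so 120 genes had a value. Another 114 autosomal genes with the same prefix, annotated with other biotypes such as pseudogenes, were not members.

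Type 2 receptors are G protein-coupled receptors with a long extracellular ligand-binding domain, and they are used by sensory neurons of the basal layer of the vomeronasal organ, which detects pheromones and other social cues. The genes lie in tandem arrays that expanded by repeated duplication. A basal neuron typically uses one receptor gene of the large subfamilies together with a broadly used receptor of the Vmn2r1 to Vmn2r7 subfamily. In embryonic stem cells these receptors serve no known sensory role, and large silent gene arrays of this kind are commonly found in the inactive B compartment.

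Hi-C, which records contacts between chromosomal sites in fixed nuclei, had been made from mESCs in which the methylation of lysine 9 of histone H3 (H3K9) was disturbed, with the question of how H3K9 methyltransferases bear on compartments. Each of 8 groups held 1 library, so no group had a replicate. The Setdb1 line (#33-6) carries a conditional Setdb1 allele that 4-OHT removes, and its groups were Setdb1 WT without an agent, Setdb1 WT + UNC, Setdb1 KO and Setdb1 KO + UNC. The other line gave Suv39h WT, Suv39h WT + UNC, Suv39h DKO, which lacks SUV39H1 and SUV39H2, and Suv39h DKO + UNC. UNC is UNC0642, an inhibitor of the H3K9 methyltransferases G9a and GLP, and cells were kept in 2 µM of it for 3 days. Setdb1 KO received 800 nM 4-OHT during 5 days, and Setdb1 KO + UNC received it for 2 days before UNC0642. Suv39h WT and Suv39h DKO are separate clones (ADF1-26 and ADF157), and the effects of clone and of genotype cannot be told apart.

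A positive score places a bin in the A compartment, where active chromatin gathers, and a negative score places it in B. The score has no unit, and it averages 0 over each chromosome of each library, so a score tells where a bin stands within its own chromosome and a general shift cannot appear. The scores carry no read counts, and the sources do not say which repeat of the experiment a file holds, so the depth behind a score is not known here. Between libraries, Pearson's r over all bins ran from 0.958 to 0.990 for 28 pairs. Setdb1 WT + UNC stood apart from its own line, with r = 0.978 against Setdb1 WT and 0.978 against Suv39h WT + UNC, while Setdb1 KO and Setdb1 WT reached 0.989. The scores hold no expression, so markers of embryonic stem cells could not be checked.

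The receptor genes came from 17 clusters on 8 chromosomes, when members no more than 1 Mb apart were joined. Chromosomes 7 and 17 held 51 and 32 of them, together 68.6%. The members were close copies of each other. Among 119 genes with a match over at least 80% of the coding sequence, the median identity to the closest member was 95.03%, and for 113 genes that closest member was in the same cluster. The tightest set was Vmn2r29 to Vmn2r52 on chromosome 7, where all 24 genes had a copy at 95% identity or more and the median was 99.3%. Vmn2r18 on chromosome 5 and Vmn2r120 on chromosome 17 had no such match.

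The likeness reached the promoters. RefSeq promoters (GRCm38.p6) were matched by symbol for 114 of the 121 members, and the 250 bases before the start were compared. The median identity to the closest other member was 90.1%, and 9 members had a window identical to that of another, all 9 of them in Vmn2r29 to Vmn2r52. At least 1 CG (the letters C then G, the same on both strands) was present in 63.2% of the member windows and in 92.1% of the 32851 windows of all promoters, and the median GC content was 38.4% against 52.4%. The windows printed here do not touch an annotated exon and show a pair of near copies and a less close relative, while the least alike member window, that of Vmn2r29 at 47.6%, is not shown. Vmn2r33 and Vmn2r35 belong to the chromosome 7 array of near copies, lie on the minus strand at chr7:7566787-7567036 and chr7:7819868-7820117, and were 96.4% identical. Capitals mark the bases of each that differ from the other. The window of Vmn2r33 is also, base for base, that of Vmn2r31 and Vmn2r38, and the window of Vmn2r35 lies in the bin of Vmn2r36. Vmn2r103 is on the plus strand at chr17:19773113-19773362, in a bin that reads can be placed in almost throughout, and capitals mark where it differs from its closest relative, Vmn2r101, to which it was 87.0% identical.
Vmn2r33: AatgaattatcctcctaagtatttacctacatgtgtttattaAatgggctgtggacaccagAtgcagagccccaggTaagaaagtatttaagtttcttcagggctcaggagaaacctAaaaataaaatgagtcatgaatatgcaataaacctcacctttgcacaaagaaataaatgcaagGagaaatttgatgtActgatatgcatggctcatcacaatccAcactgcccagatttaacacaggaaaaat
Vmn2r35: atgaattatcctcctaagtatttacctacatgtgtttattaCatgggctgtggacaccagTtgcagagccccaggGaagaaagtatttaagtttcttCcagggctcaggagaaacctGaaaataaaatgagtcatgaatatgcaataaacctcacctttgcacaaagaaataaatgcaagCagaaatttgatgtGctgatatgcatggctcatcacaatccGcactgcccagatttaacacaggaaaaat
Vmn2r103: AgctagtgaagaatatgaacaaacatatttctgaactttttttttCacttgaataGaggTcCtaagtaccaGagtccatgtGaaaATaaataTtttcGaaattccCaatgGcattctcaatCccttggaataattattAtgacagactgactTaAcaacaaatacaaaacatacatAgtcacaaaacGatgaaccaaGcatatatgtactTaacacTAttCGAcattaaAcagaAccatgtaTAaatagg

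Nearly all receptor bins were in B in every library. In Setdb1 WT, 94 of 97 member bins had a negative score, where the share of all bins was 55.5%. Setdb1 WT + UNC also had 94 and Setdb1 KO and Setdb1 KO + UNC each had 90, against 55.3%, 55.3% and 55.4% of all bins. In the other line 95 bins were negative in Suv39h WT and 94 in Suv39h DKO, against 55.2% and 54%, and with UNC0642 both backgrounds had 96, against 54.8% and 53.7%. These shares depend on where 0 lies, and with the chromosome mean that an eigenvector of unit length implies added back to every bin the member shares went from between 92.8% and 99.0% to between 83.5% and 90.7%, and those of all bins to between 45.4% and 49.0%. Taken over libraries, 86 of the 97 bins were in B in all 8, which holds for 48% of all bins, none was in A in all 8, and 11 changed sign between libraries, as 13% of all bins did. The median score of the member bins lay between -0.0194 in Setdb1 KO + UNC and -0.0283 in Suv39h DKO + UNC, far below the medians of all bins, which lay between -0.00523 and -0.00345. Over the 97 bins, the 8-library mean varied with an SD of 0.0146. Between libraries a member bin varied by less, with a median SD of 0.00438, against 0.00357 over all bins.

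Other gene families of scent detection were set beside the receptors, and they did not share one level. The type 1 receptors, Vmn1r, which serve apical vomeronasal neurons, had 64 of 94 bins in B in all libraries, 6 in A in all and a median of -0.0114 over the 8-library means. The odorant receptors, Olfr, had 249 of 334 in B, 46 in A and a median of -0.0214, close to the -0.0221 of Vmn2r. Of the families that supply or resemble vomeronasal ligands and receptors, the exocrine gland-secreted peptides (Esp) had 11 of 11 bins in B and the formyl peptide receptors (Fpr-rs) 3 of 3, with Fpr-rs4 in the bin of Vmn2r124 and Vmn2r91. The major urinary proteins (Mup) had 15 of 18 in B, and 14 of those 18 bins were hard to align uniquely. The class I molecules of basal neurons (H2-M) had 5 of 7 in B and 2 in A.

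Genes listed as partners of the receptors, for vomeronasal signalling, receptor transport and neuron identity, showed the opposite sign. All 12 were in A in all 8 libraries, as 38.9% of all bins were, with 8-library means from 0.0133 for Gnao1, the G protein alpha subunit of basal neurons, to 0.0499 for Gnai2, its apical counterpart. Trpc2, the cation channel of vomeronasal signalling, had a mean of 0.0365, with values from 0.0332 in Suv39h DKO to 0.0390 in Setdb1 KO + UNC. Tfap2e, a transcription factor of basal identity, had a mean of 0.0345 and Bcl11b, needed for vomeronasal neuron development, 0.0241. The lowest partner value in any library was 0.00652, for Gnao1 in Setdb1 KO + UNC.

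**Figure D1:**
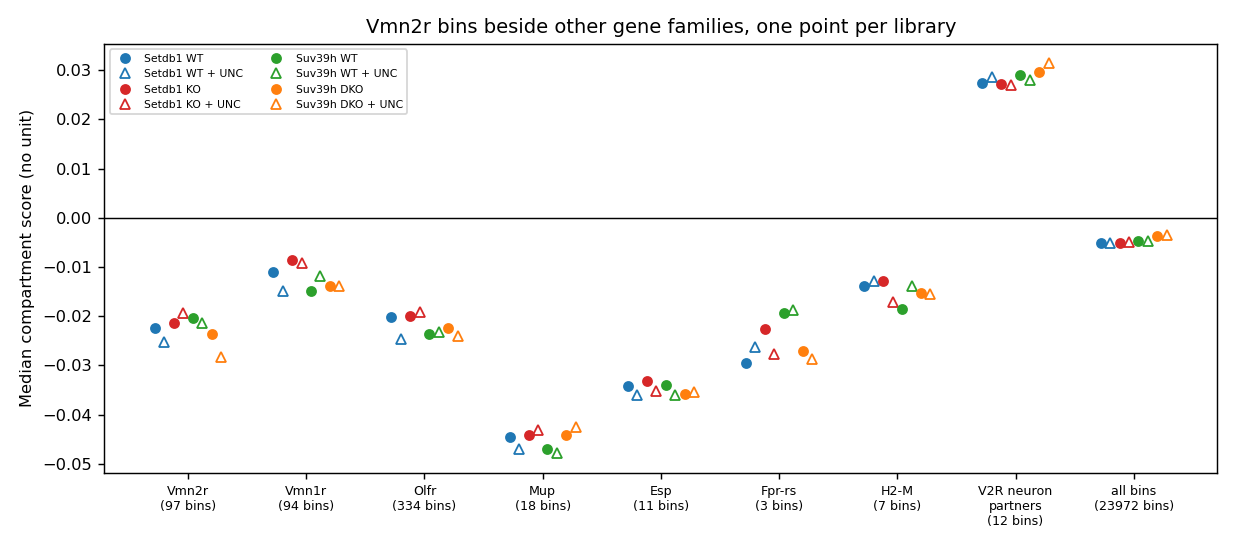
Median compartment score (no unit, vertical axis) of the bins of each gene family, with 1 point for each of the 8 libraries; circles are libraries without UNC0642 and triangles those with it. The Vmn2r medians run from -0.0283 to -0.0194, all below those of all bins, and the partner genes are all above 0.

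All 17 clusters had a negative 8-library mean, and their depth in B differed widely. In Setdb1 KO and Setdb1 KO + UNC 16 clusters were negative, the exception being Vmn2r88 to Vmn2r89, and 16 were negative in Suv39h DKO, where Vmn2r-ps159 was positive. In the other 5 libraries all 17 were. Lowest were 3 clusters that differed from each other by less than their spread over the libraries. The lone gene Vmn2r118 on chromosome 17 (chr17:55590370-55625192) had a mean of -0.0378 (SD 0.00235 over the 8 libraries), Vmn2r29 to Vmn2r52 (chr7:7231327-10176573, 24 genes) -0.0376 (SD 0.00113) and the lone gene Vmn2r120 (chr17:57506453-57545505) -0.0374 (SD 0.00602). Of the bins of chromosome 7, only 4.13% scored lower than Vmn2r29 to Vmn2r52, and 9.47% of those of chromosome 17 lay below Vmn2r120.

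A middle group of arrays followed. Vmn2r65 to Vmn2r79 (chr7:84935565-87044941, 15 genes) had a mean of -0.0301 (SD 0.00186), and its 12 bins were alike, between -0.0333 and -0.0248. Both arrays of chromosome 17 came after it, with -0.0274 (SD 0.00332) for Vmn2r111 to Vmn2r117 (chr17:22544504-23479699) and -0.0228 (SD 0.00416) for Vmn2r90 to Vmn2r110 (chr17:17703747-20596423, 22 genes). The gap from Vmn2r65 to Vmn2r79 to the next array was smaller than the larger of their SDs, and the gap between the chromosome 17 arrays was slightly larger than theirs. Vmn2r19 to Vmn2r27 on chromosome 6 took its place in the order from 1 bin. Its mean was -0.0265 (SD 0.00558) with the bin of Vmn2r21 and -0.0165 (SD 0.00550) without it, the other 6 bins lying between -0.0193 and -0.0136, which is among the shallow clusters.

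Shallow clusters were mostly small. The mean was -0.0190 for Vmn2r1 to Vmn2r7 (SD 0.000961) and -0.0152 for Vmn2r8 to Vmn2r17 (SD 0.00130). The values of Vmn2r57 to Vmn2r63, -0.0115, and of Vmn2r80 to Vmn2r83, -0.0113, could not be separated by their SDs of 0.00186 and 0.00371. Nearest to 0 were Vmn2r88 to Vmn2r89 on chromosome 14 at -0.00658 (SD 0.00795), Vmn2r84 to Vmn2r87 on chromosome 10 at -0.00506 (SD 0.00325) and Vmn2r-ps159 on chromosome 4 at -0.00333 (SD 0.00477). Vmn2r-ps159 is annotated as protein-coding despite the pseudogene form of its symbol, and 50.9% of the bins of its chromosome scored lower.

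Several arrays ended at a sharp step into A. The 5 bins after Vmn2r80 to Vmn2r83 averaged 0.0545, the 5 after Vmn2r111 to Vmn2r117 averaged 0.0392 and the 5 after Vmn2r19 to Vmn2r27 averaged 0.0218. On the near side the same arrays met bins that were already in B, at -0.0103, -0.0147 and -0.00742. Vmn2r65 to Vmn2r79 had negative bins on both sides, at -0.0135 and -0.0278, and 15 odorant receptor genes lay inside its span. Bins between members inside an array differed in how near they came to the members. They averaged -0.0211 within Vmn2r90 to Vmn2r110, a span that also held 2 Vmn1r genes, and -0.0280 within Vmn2r65 to Vmn2r79, close to the member means. Within Vmn2r29 to Vmn2r52 they were lower than the members, at -0.0508. They were nearer 0 than the members within Vmn2r19 to Vmn2r27 (-0.0120) and Vmn2r57 to Vmn2r63 (-0.00340), and the 1 such bin of Vmn2r53 to Vmn2r56 was positive at 0.00442.

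**Figure D2:**
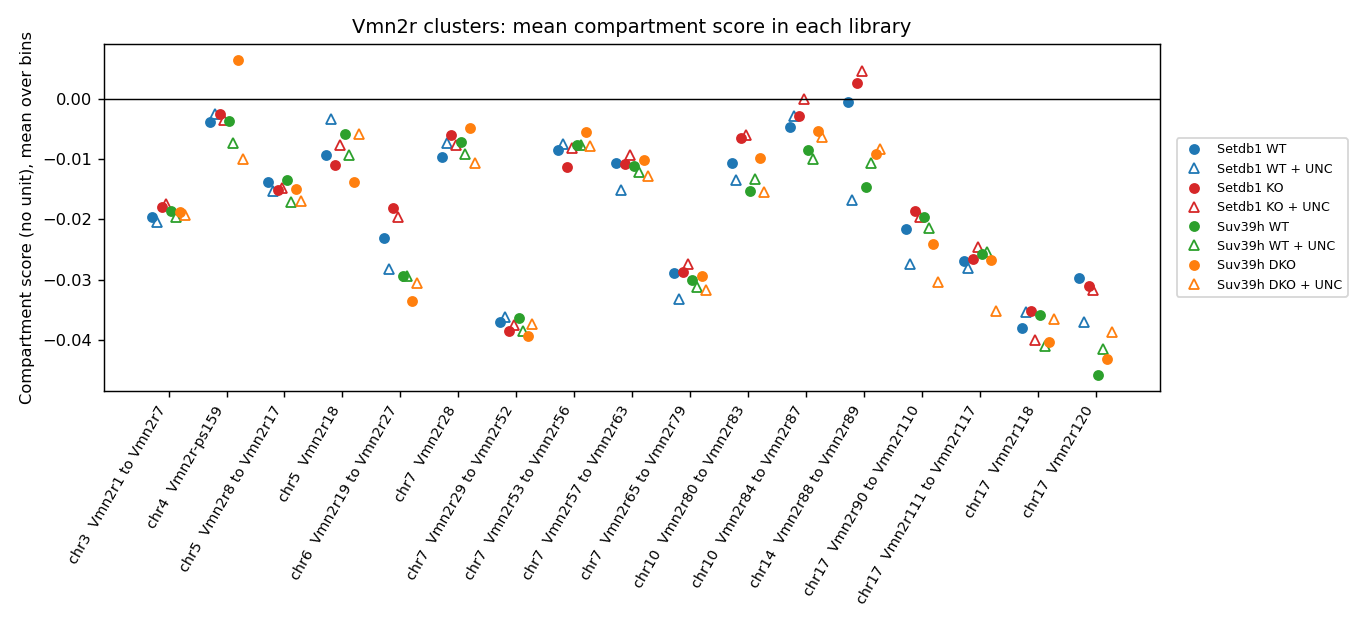
Mean compartment score (no unit, vertical axis) over the bins of each of the 17 Vmn2r clusters, with 1 point per library and open triangles for UNC0642. The points of Vmn2r29 to Vmn2r52 lie close together at a mean of -0.0376, and the points above 0 belong to Vmn2r88 to Vmn2r89 in both Setdb1 KO libraries and to Vmn2r-ps159 in Suv39h DKO.

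The lowest single scores were in bins where few reads can be placed. Near-identical copies leave reads without a unique position, so each bin was given the share of simulated 150-base reads that aligned with a mapping quality above 10, called alignable here. It was under 80% in 33 of the 97 member bins, or 34.0%, and in 3.73% of all bins. The bin of Vmn2r21, at 2% alignable, had the lowest score of all members in every library, from -0.102 in Suv39h DKO to -0.0766 in Setdb1 KO. Next were Vmn2r47 (6%), with a mean of -0.0567, and Vmn2r36 (5%), with -0.0552. The unscored bin of Vmn2r46 was 0% alignable with no unresolved bases. Across Vmn2r29 to Vmn2r52, alignable sequence averaged 35.1% per bin.

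Score and alignability moved together at the low end. The 6 member bins under 20% had a median score of -0.0539 and the 126 such bins of the whole series -0.0571. In the 45 member bins at 90% or more the median was -0.0206, while in the 20387 such bins of the series it was 0.000351. Over the 97 member bins Pearson's r between score and alignable share was 0.675 and Spearman's rho 0.342. These points share libraries and lie next to each other, so the value is a description. Among the 64 member bins at 80% or more, r was -0.205 and rho -0.159, and the score instead followed GC content, with r = 0.668 and rho = 0.687. Over all bins GC gave r = 0.770. Well-aligned receptor bins were still in B, with between 59 of 64 negative, in Setdb1 KO and Setdb1 KO + UNC, and 64 of 64, in Suv39h WT + UNC, where between 52.3% and 54.3% of all bins at 80% or more were. The part of alignability in the lowest scores was not tested. Vmn2r120 had a low score with 99% alignable sequence and Vmn2r65 to Vmn2r79 with 91.8% on average.

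**Figure D3:**
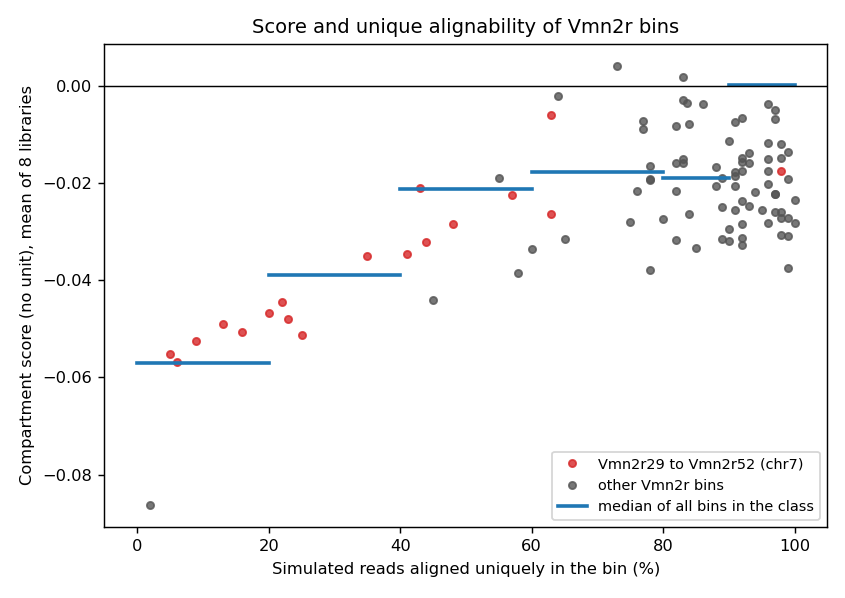
Score of each of the 97 Vmn2r bins, as the mean of 8 libraries (no unit, vertical axis), against the share of simulated reads that align uniquely in the bin (percent, horizontal axis), with the median of all bins in each class as a blue line. Bins of Vmn2r29 to Vmn2r52 (red) fall with decreasing alignability, and receptor bins at 90% or more have a median of -0.0206 where all bins have 0.000351.

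At the other end, few receptor bins reached A. The 3 highest, those of Vmn2r63, Vmn2r83 and Vmn2r62, were 73%, 83% and 64% alignable. By the 8-library mean the highest was that of Vmn2r63 on chromosome 7, with 0.00631 in Setdb1 WT and 0.0121 in Setdb1 KO without UNC0642, and 0.000199 and 0.0116 with it. In the 4 Suv39h libraries it lay between -0.000686, in Suv39h DKO + UNC, and 0.00361. Vmn2r83, the last gene of its array before the step into A, was positive in 4 libraries, namely Setdb1 WT (0.00317), Setdb1 KO (0.00793), Setdb1 KO + UNC (0.00892) and Suv39h DKO (0.00400). Vmn2r62 took both signs by a similar margin. It was 0.00748 in Setdb1 WT and 0.00607 and 0.00755 in the Setdb1 knockouts without and with UNC0642, but -0.00737 in Setdb1 WT + UNC and between -0.00997 and -0.00559 in the 4 Suv39h libraries.

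The Vmn2r1 to Vmn2r7 array, whose products are the broadly used partners of the other receptors, was lower at its far end on chromosome 3 (chr3:64081547-64844765) than at its near end. The 8-library mean went from -0.00483 at Vmn2r1, -0.0116 at Vmn2r2 and -0.00363 at Vmn2r3 through -0.0148 at Vmn2r4 and -0.0280 at Vmn2r5 to -0.0314 at Vmn2r6 and -0.0384 at Vmn2r7. Every library showed Vmn2r7 lower than Vmn2r1 by at least 0.0243. Alignable sequence went from 97% at Vmn2r1 to 58% at Vmn2r7, and its part in this difference was not tested. Vmn2r26, a receptor for peptide ligands of class I molecules, scored -0.0158 on average and was negative in all libraries. Vmn2r116, the receptor for the male pheromone ESP1, shared its bin with Vmn2r115 and scored -0.0274, with a range from -0.0333 to -0.0230.

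**Figure D4:**
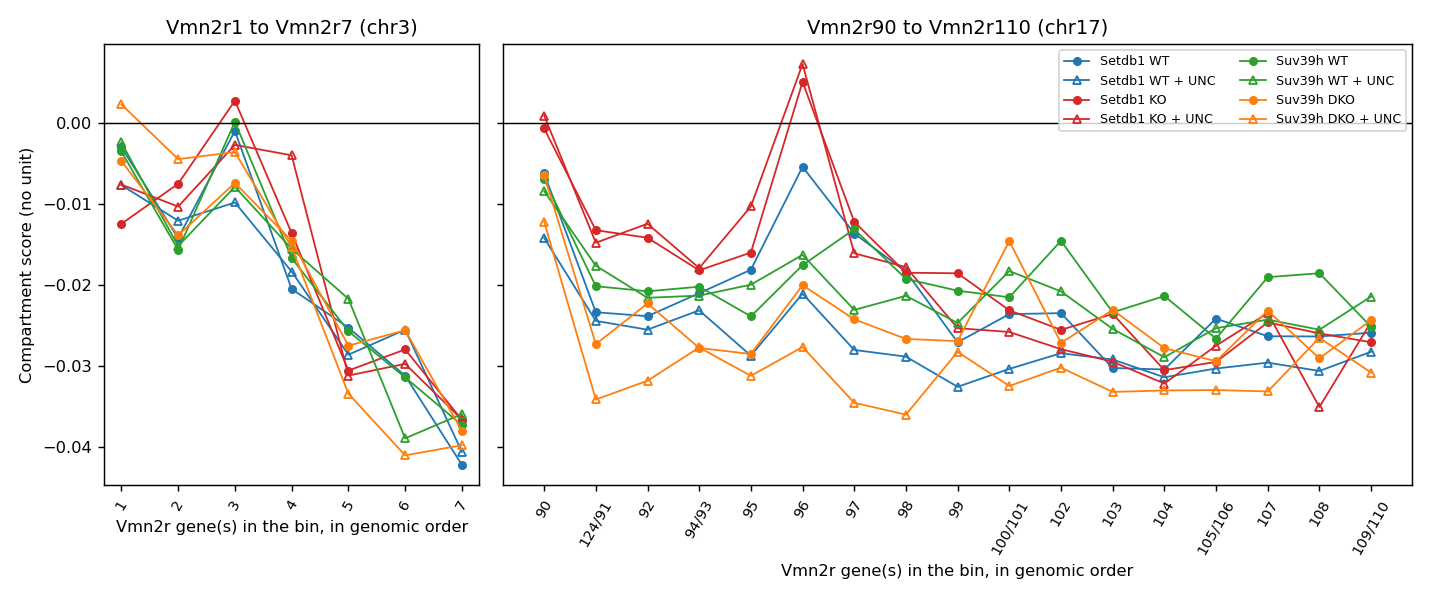
Compartment score (no unit, vertical axis) of each bin of Vmn2r1 to Vmn2r7 (left) and of Vmn2r90 to Vmn2r110 (right), in genomic order along the horizontal axis, with 1 line per library. On the left, Vmn2r7 lies below Vmn2r1 in every library, with steps up and down between them, and at Vmn2r96 on the right the 2 Setdb1 KO libraries reach 0.00515 and 0.00736 while the others stay below 0.

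Loss of SETDB1 was read from 2 pairs of libraries that share no library, Setdb1 KO against Setdb1 WT and Setdb1 KO + UNC against Setdb1 WT + UNC. Both knockout libraries had received 4-OHT and neither WT library had, so exposure to 4-OHT and loss of SETDB1 cannot be told apart. More receptor bins were higher than lower after loss, but no single bin passed the test. Of the 97 bins, 40 were higher in both pairs, where 25% of all bins were, and 12 were lower in both, where 29.4% were. On chromosome 6 this held for 6 of 7 member bins higher and 0 lower, on chromosome 10 for 5 of 6 and 0 and on chromosome 17 for 12 of 26 and 3. On chromosome 7, which held the most members, the counts were 11 of 40 higher and 5 lower, on chromosome 3 they were 4 of 7 and 1, and on chromosome 5 they were 1 of 9 and 3. Of all bins of these 6 chromosomes, between 24.2% and 26.6% were higher in both and between 25.5% and 31.8% lower, and for chromosome 7 the shares were 24.2% and 29.3%. The median change was 0.00127 without UNC0642 and 0.00312 with it, against -0.000122 and -0.000425 over all bins. Without UNC0642, 2 member bins were higher by 0.01 or more and 1 was lower by as much, where 1.4% and 0.88% of all bins were. With UNC0642 the counts were 18 and 2, against 7.16% and 5.79%.

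The second pair rests on Setdb1 WT + UNC, the library that stood apart. Set against Setdb1 WT instead, Setdb1 KO + UNC had 5 member bins higher by 0.01 or more and 1 lower, against 1.46% and 1.18% of all bins, and 61 of the 97 were higher by any amount, against 49.2%. This comparison shares its control with Setdb1 KO against Setdb1 WT, where 57 were higher by any amount, against 48.6%. More bins were higher than lower without that library too, with smaller counts past 0.01.

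The 3 receptor bins with the largest positive differences for SETDB1 loss, among those of 1 sign in both pairs, were well aligned, at 92% to 98%. Vmn2r96 scored -0.00536 in Setdb1 WT, 0.00515 in Setdb1 KO, and with UNC0642 -0.0211 and 0.00736, so both knockout libraries were in A and both others in B. The 4 Suv39h libraries were negative, between -0.0277 and -0.0163. The difference was 0.0195 (SE 0.00412, adjusted p = 0.274 over all 23972 bins, limma). It was also the only member bin that was higher by 0.01 or more in both pairs, as 0.567% of all bins were. Its neighbour Vmn2r95 was higher in both pairs, with -0.0181 and -0.0287 in the WT libraries and -0.0160 and -0.0103 in the knockout libraries.

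Vmn2r25 on chromosome 6 scored -0.00958 in Setdb1 WT, -0.00213 in Setdb1 KO, and with UNC0642 -0.0239 and -0.000535, a difference of 0.0154 (SE 0.00428, adjusted p = 0.345, limma). The shared bin of Vmn2r88 and Vmn2r89 on chromosome 14 scored -0.000566 in the WT and 0.00274 in the knockout without UNC0642 and -0.0168 and 0.00458 with it, a difference of 0.0123 (SE 0.00439, adjusted p = 0.444, limma). In each of these 3 bins the pair with UNC0642 gave the larger difference, 0.0284 against 0.0105 for Vmn2r96, 0.0234 against 0.00745 for Vmn2r25 and 0.0214 against 0.00330 for Vmn2r88 and Vmn2r89. When Setdb1 WT was left out, so that the knockouts were compared with Setdb1 WT + UNC alone, limma called all 3 of them, with adjusted p between 0.0162 and 0.0172, among 343 bins higher and 105 lower over the series (1.43% and 0.438%). When Setdb1 WT + UNC was left out instead, it called none, and 6 member bins were higher and 3 lower at an unadjusted p under 0.05, against 2.19% and 1.6% of all bins.

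With all libraries, limma called 0 bins higher and 0 lower for SETDB1 loss, members or not. At an unadjusted p under 0.05, 14 member bins were higher and 1 was lower, against 5.16% and 3.94% of all bins. Of those 14, Vmn2r90, Vmn2r92, Vmn2r95, Vmn2r96, Vmn2r99 and the bin of Vmn2r124 and Vmn2r91 lay in 1 array of chromosome 17. In that array, Vmn2r90 to Vmn2r110, 12 of 17 bins were higher without UNC0642 (mean 0.00302, SD over bins 0.00470) and 14 of 17 with it (mean 0.00780, SD 0.00813). Of all bins, 48.6% were higher without UNC0642. With it that share is not given here, and the median change over all bins was -0.000425. Neighbouring bins of an array are not independent. Of the 17 clusters, 8 had a higher mean in both pairs, namely Vmn2r1 to Vmn2r7, Vmn2r19 to Vmn2r27, Vmn2r65 to Vmn2r79, both clusters of chromosome 10, the chromosome 14 pair and both arrays of chromosome 17. Of all single bins, 25% were higher in both pairs. No such share was computed for cluster means, which rest on 1 to 18 bins.

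On the lower side, 3 clusters, Vmn2r18, Vmn2r29 to Vmn2r52 and Vmn2r53 to Vmn2r56, had a lower mean in both pairs. Of all single bins, 29.4% were lower in both. The bin of Vmn2r41 and Vmn2r42, at 9% alignable, scored -0.0465 and -0.0481 in the WT libraries and -0.0541 and -0.0554 in the knockout libraries (difference -0.00741, SE 0.00265, adjusted p = 0.447, limma). For Vmn2r114 the difference was -0.00538 (SE 0.00283, adjusted p = 0.618, limma) and for Vmn2r35 it was -0.00492 (SE 0.00421). Among the 64 well-aligned member bins, 31 were higher in both pairs and 6 lower, against 24.5% and 29.9% of all well-aligned bins.

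Loss of SUV39H1 and SUV39H2 was read from Suv39h DKO against Suv39h WT and Suv39h DKO + UNC against Suv39h WT + UNC, again without a shared library. More receptor bins were lower than higher, an excess that came from chromosome 17, and no bin passed the test. Of the 97, 33 were lower in both pairs and 19 higher, against 27.4% and 28.6% of all bins. Chromosome 17 held 18 of the 33, and there 18 of 26 member bins were lower and 1 was higher. Of all bins of chromosome 17, 30.7% were lower in both and 31.2% higher, and of its bins with a negative mean 27.6% and 34.7%. On chromosome 7, 8 of 40 member bins were lower in both and 11 higher, against 26.5% and 29.2% of all bins of that chromosome. The median change was -0.000615 without UNC0642 and -0.00168 with it, against 2.85e-05 and 0.000115 over all bins. Lower by 0.01 or more were 10 member bins without UNC0642 and 11 with it, against 3.73% and 3.86%, and higher by as much were 3 and 2, against 3.64% and 2.98%. Among the 64 well-aligned member bins, 23 were lower in both pairs and 13 higher, against 27.4% and 28.8% of all well-aligned bins. Past 0.01, 4 of them were lower without UNC0642 and 7 with it, against 3.497% and 3.64%. By as much, 1 was higher in each pair, against 3.48% and 2.90%. Suv39h DKO + UNC against the untreated Suv39h WT, which is also the control of the first pair, had 15 member bins lower by 0.01 or more and 1 higher, against 5.27% and 4.53% of all bins.

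The array Vmn2r90 to Vmn2r110 was lower in 13 of 17 bins without UNC0642 (mean -0.00448, SD over bins 0.00502) and in 17 of 17 with it (mean -0.00894, SD 0.00426). The share of all bins lower in each single pair is not given here. Over all bins the median changes were 2.85e-05 and 0.000115. Vmn2r97, the only member bin lower by 0.01 or more in both pairs (0.509% of all bins), scored -0.0131 in Suv39h WT and -0.0242 in Suv39h DKO, and with UNC0642 -0.0231 and -0.0346. Its difference was -0.0113 (SE 0.00305, adjusted p = 0.366, limma). The bin of Vmn2r124 and Vmn2r91 scored -0.0201, -0.0273, -0.0176 and -0.0342 in the same order, a difference of -0.0119 (SE 0.00296, adjusted p = 0.358, limma). Vmn2r98 was lower by a like amount, with a difference of -0.0111 (SE 0.00331, adjusted p = 0.386, limma).

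On the other side stood bins of chromosome 7. Vmn2r33, whose promoter window is printed above and whose bin is 41% alignable, scored -0.0387 in Suv39h WT and -0.0271 in Suv39h DKO, and with UNC0642 -0.0438 and -0.0331 (difference 0.0112, SE 0.00414, adjusted p = 0.443, limma). Vmn2r58, at 78% alignable, had a difference of 0.00728 (SE 0.00310) and Vmn2r35, at 13%, of 0.00657 (SE 0.00421). limma called 0 bins in either direction for SUV39H1/2 loss, and at an unadjusted p under 0.05 it gave 3 member bins higher and 10 lower, against 4.76% and 4.85% of all bins. The clusters split evenly, with 3 higher in both pairs and 3 lower, Vmn2r19 to Vmn2r27 and both chromosome 17 arrays being the lower ones. Of all single bins, 28.6% were higher in both pairs and 27.4% lower.

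UNC0642 was read from 4 pairs, 1 in each background. In Setdb1 KO the 2 libraries also differ in 4-OHT, given for 5 days without UNC0642 and for 2 days before it. In that background this difference and the inhibitor cannot be told apart. Most receptor bins had a slightly lower mean with the inhibitor, and few moved the same way in every pair. A higher score in all 4 pairs was seen in 3 of 97 bins and a lower one in 10, against 6.79% and 5.94% of all bins. The mean over the 4 pairs was above 0 in 26 of the 97 bins, and the share of all bins above 0 is not given here. The median of these means was -0.00153, against 3.82e-05 over all bins. The median change, which was not tested between backgrounds, was -0.00217 in Setdb1 WT, 0.000581 in Setdb1 KO, -0.000804 in Suv39h WT and -0.00270 in Suv39h DKO. The Setdb1 WT value rests on Setdb1 WT + UNC, the library that stood apart. With the implied chromosome mean added, the Suv39h DKO value was -0.000900. Lower by 0.01 or more were 9, 1, 5 and 11 member bins in that order, against 4.62%, 0.934%, 2.53% and 3.69% of all bins, and higher by as much were 3, 0, 2 and 7, against 3.51%, 0.755%, 2.26% and 3.04%. In the 64 well-aligned bins, 7, 0, 1 and 6 of those lower remained, against 4.35%, 0.880%, 2.43% and 3.41% of all well-aligned bins. None of those higher did in any of the 4 backgrounds, against 3.52%, 0.741%, 2.14% and 2.65%. In a test of the difference between lines (line by UNC0642, limma), 0 member bins and 0 of all bins passed, and 2 members were higher and 3 lower at an unadjusted p under 0.05, against 1.86% and 1.81% of all bins.

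Vmn2r44 and Vmn2r43, adjacent on chromosome 7, had the largest positive differences of 1 sign in all pairs. Vmn2r44 went from -0.0301 to -0.0222 in Setdb1 WT, from -0.0287 to -0.0204 in Setdb1 KO, from -0.0316 to -0.0183 in Suv39h WT and from -0.0338 to -0.0260 in Suv39h DKO. Its difference was 0.00935 (SE 0.00195, adjusted p = 0.957, limma), and the bin is 63% alignable. Vmn2r43, at 22% alignable, had a difference of 0.00780 (SE 0.00211, adjusted p = 0.957, limma). Neither passed over all bins.

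Of those that were lower, Vmn2r97 had the largest difference, -0.00965 (SE 0.00216, adjusted p = 0.957, limma), with -0.0136 against -0.0280 in Setdb1 WT, -0.0122 against -0.0161 in Setdb1 KO and the Suv39h values given above. It was followed by the bin of Vmn2r115 and Vmn2r116 at -0.00525 (SE 0.00209) and Vmn2r99 at -0.00440 (SE 0.00192). Vmn2r90 to Vmn2r110 was the 1 cluster of 17 with a lower mean in all 4 pairs, from -0.00632 in Suv39h DKO to -0.000947 in Setdb1 KO. Of all single bins, 5.94% were lower in all 4. These pairs share libraries with the knockout comparisons. limma called 0 bins for UNC0642 in either direction, and at an unadjusted p under 0.05 it gave 3 member bins higher and 5 lower, against 2.3% and 2.65% of all bins.

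**Figure D5:**
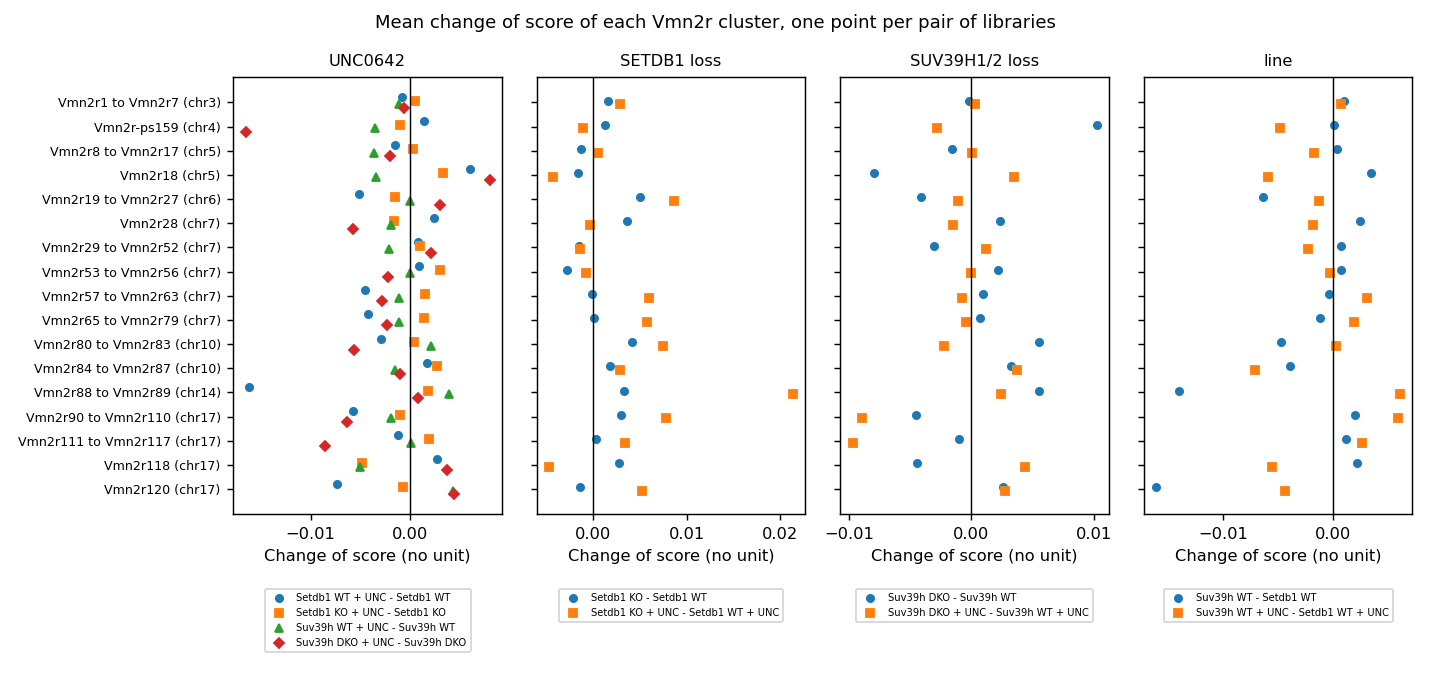
Mean change of score (no unit, horizontal axes) over the bins of each Vmn2r cluster, with 1 panel per comparison and 1 point per pair of libraries. In the SETDB1 panel 8 of 17 clusters lie to the right of 0 in both pairs, where 25% of all single bins were higher in both. Vmn2r90 to Vmn2r110 lies to the right for SETDB1 loss and to the left for SUV39H1/2 loss and UNC0642. The panels share libraries, so their points are not independent.

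The Suv39h WT and Setdb1 WT backgrounds were also set against each other, without and with UNC0642, to show how far the WT lines differ. The pair with UNC0642 rests on Setdb1 WT + UNC, the library that stood apart. Of the 97 bins, 35 were higher in Suv39h WT in both pairs and 22 lower, against 29.7% and 29.2% of all bins. The array Vmn2r90 to Vmn2r110 had 12 of 17 bins higher in Suv39h WT in both pairs and 0 lower, with a mean difference of 0.00205 (SD over bins 0.00564) without UNC0642 and 0.00592 (SD 0.00249) with it, beside the knockout differences of the same array given above, which share these WT libraries. limma called 31 bins higher and 56 lower over the series (0.129% and 0.234%) and 0 of the member bins, with the lowest adjusted p of a member at 0.164. At an unadjusted p under 0.05, 4 member bins were higher and 6 lower, against 6.71% and 6.75%. Without UNC0642, 3 member bins were higher and 8 lower by 0.01 or more, against 5.68% and 6.27%.

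Among the named bins of the line comparison, Vmn2r33 differed by -0.0124 (SE 0.00414, adjusted p = 0.243, limma), Vmn2r21 by -0.0124 (SE 0.00421) and Vmn2r120 by -0.0103 (SE 0.00334). For the well-aligned Vmn2r120 the 4 Suv39h values, from -0.0459 to -0.0388, were all below the 4 of the Setdb1 line, from -0.0371 to -0.0297. Higher in the Suv39h line were Vmn2r111 by 0.00846 (SE 0.00421), Vmn2r102 by 0.00830 (SE 0.00265) and Vmn2r52 by 0.00751 (SE 0.00288). The fits give these differences between WT backgrounds, each of 2 libraries, and line, clone and culture cannot be told apart.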

How the data were processed

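Compartment scores were available for 8 Hi-C libraries. Per the study's methods, the authors cut chromatin with DpnII, processed the reads with the 4D Nucleome Hi-C pipeline on mm10, discarded low mapping qualities and built contact maps with Juicer Tools. The deposited score is a first eigenvector, computed in 100-kb bins from the KR-normalised map of each autosome. Hi-C had been done more than once per group, and which repeat, or whether a pool, a file holds is not stated in the sources used here. The study lists a read number for each repeat, but the files do not say which one they hold, so no depth-based error is given.

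Member bins, clusters (gaps up to 1 Mb), levels and changes were computed with Python 3.11.15 and pandas 2.3.3. A change of 0.01 was the size counted between single libraries, where no test is possible. limma 3.58.1 (R 4.3.3) was fitted to all 23972 bins of all 8 libraries, with a term for each of the 4 backgrounds, so that libraries without and with UNC0642 are paired within a background, and 1 for UNC0642, and p-values were adjusted by Benjamini-Hochberg over all bins at a threshold of 0.05. SETDB1 loss, SUV39H1/2 loss and line are contrasts of the backgrounds in that fit, each of 2 libraries against 2, and their libraries differ in UNC0642, so p-values measure only the spread between these libraries. The fit was tested on simulated data. Alignable sequence was the share of 150-base reads, taken every 1000 bases from the reference, that minimap2 2.31 placed with mapping quality above 10, and this aligner stands in for that of the pipeline. Coding sequences were compared with BLAST+ 2.17.0 and promoters by global alignment (Biopython 1.88). No protein table was used here.

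Named genes were every cluster by its first and last gene, Vmn2r1 to Vmn2r7, Vmn2r26 and Vmn2r116, the 3 highest and 3 lowest member bins, and for each contrast the 3 largest rises and falls with 1 sign in every pair. Vmn2r95, the array members listed by unadjusted p, and the genes of printed promoters were named after their values were seen. The members and lists were chosen with earlier results of these data known. The alternatives were the gene position, the bins and biotypes counted, chromosome centring, scaling, the size of a change, the cluster gap, the limma settings and leaving out libraries, and a limit of 80% alignable sequence and the mean of Vmn2r19 to Vmn2r27 without the bin of Vmn2r21 were added after the data were seen.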

Additional observations from a re-analysis of the deposited data

Results flagged for a closer look

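For 2 of the 17 clusters, the mean change with UNC0642 went one way in both backgrounds of the Setdb1 line and the other way in both of the Suv39h line. Over all single bins the share with such a pattern was 11.1%, so the count is near that background. The difference was not tested for the clusters, and 0 of their bins passed the limma test of line by UNC0642. Vmn2r84 to Vmn2r87 on chromosome 10 changed by 0.00173 in Setdb1 WT and 0.00276 in Setdb1 KO, but by -0.00149 in Suv39h WT and -0.00100 in Suv39h DKO, a gap of -0.00349 between the lines (Suv39h minus Setdb1). Vmn2r120 on chromosome 17 changed by -0.00736 and -0.000684 in the Setdb1 line and by 0.00439 and 0.00450 in the Suv39h line, a gap of 0.00847. Each cluster rests on 1 or 2 bins.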

How the results depend on the processing

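The sign of the member medians was negative in every library under every alternative. The median change between libraries moved by less than 0.00305, the residual SD of a single bin in limma, in all 99 alternative values. The main medians themselves ran only from -0.00326 to 0.00312, so staying within that limit says little. For Suv39h DKO + UNC against DKO the median went from -0.00270 to -0.000900 with the implied chromosome mean added. The sign was kept for 10 or 11 of the 11 comparisons in each setting. Counts of clusters with a negative mean stayed within 1.5 times in all 48, the lowest being 11 of 17 with the implied chromosome mean added. What moved was mostly the place of 0, the members and the size of a change. In the lists that follow, the order of libraries is Setdb1 WT, WT + UNC, KO, KO + UNC, then Suv39h WT, WT + UNC, DKO, DKO + UNC. With the implied chromosome mean added, the shares in B were 87.6%, 89.7%, 85.6%, 83.5%, 86.6%, 90.7%, 88.7% and 87.6%, and the medians -0.0157, -0.0198, -0.0130, -0.0117, -0.0149, -0.0158, -0.0174 and -0.0193. Under it the means of Vmn2r-ps159 (0.00465), Vmn2r28 (0.00130) and Vmn2r53 to Vmn2r56 (0.00110) became positive, and the bins changing by 0.01 or more became 2 for Setdb1 KO + UNC against KO, 9 for Suv39h DKO + UNC against WT and 8 against WT + UNC. With that mean subtracted once more, the shares were 97.9% for Setdb1 KO, 96.9% for Setdb1 KO + UNC and 100% for the other 6, with medians of -0.0292, -0.0312, -0.0286, -0.0283, -0.0264, -0.0272, -0.0282 and -0.0367. With the other biotypes included, the share in B was 90.1% in Setdb1 WT, 85.4% in Setdb1 KO + UNC, 92.7% in Suv39h WT, 93.4% in Suv39h WT + UNC and 92.1% for Suv39h DKO + UNC. It was 100% in Suv39h WT + UNC with bins whose coding starts are all Vmn2r, and with scores of at least 0.005 either way it was 100% there and in Setdb1 WT + UNC, Suv39h WT and Suv39h DKO + UNC.

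Counts of bins changing by 0.01 or more followed the settings. With other biotypes they were, for the Setdb1 line, 27 (WT + UNC against WT), 6 (KO against WT), 15 (KO + UNC against WT), 42 (KO + UNC against WT + UNC) and 2 (KO + UNC against KO), for the Suv39h line 20 (DKO against WT), 35 (DKO + UNC against WT), 26 (DKO + UNC against WT + UNC) and 29 (DKO + UNC against DKO), and 24 between the WT lines. Over the 11 comparisons, a size of 0.005 gave 40, 30, 33, 42 and 26 in the Setdb1 line in the order just given, 29 for Suv39h WT + UNC against WT, then 41, 49, 33 and 46, and 37 between lines. A size of 0.02 gave 3 for Setdb1 KO + UNC against WT + UNC, 1 each for Suv39h DKO and DKO + UNC against WT, and 0 elsewhere. Quantile normalisation gave 6 for Setdb1 KO against WT, 6 for KO + UNC against KO and 8 for Suv39h DKO + UNC against DKO. With at least 80% alignable sequence, a limit chosen after seeing the data that leaves 64 bins, the medians were -0.0190 (Setdb1 WT), -0.0172 (Setdb1 KO), -0.0162 (Setdb1 KO + UNC), -0.0201 (Suv39h DKO) and -0.0250 (Suv39h DKO + UNC), Suv39h WT + UNC had 100% in B, and the counts were 7, 0 and 1 for UNC0642 in Setdb1 WT, Setdb1 KO and Suv39h WT, 5 for Suv39h DKO against WT, 8 for Suv39h DKO + UNC against WT + UNC, 6 against DKO and 4 between lines. The cause of these moves was not tested beyond the number of bins each setting leaves.

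In limma, leaving out 1 library gave between 0 and 448 calls over all bins for SETDB1 loss and between 0 and 3 among the members, both highest without Setdb1 WT. For the line, 87 calls became 7 without Setdb1 WT, 168 without Setdb1 WT + UNC, 11 without Suv39h WT and 10 without Suv39h WT + UNC, with 0 members in each. Where this leaves 1 library on a side, it is assumed to vary like the rest. Without the term for background (as a replicate block it pairs libraries of 1 background, not numbered replicates), UNC0642 again had 0 calls over all bins and 0 among members. Limits are the single library per group, a depth that could not be assigned to the files, neighbouring bins that are not independent, and scores set within each chromosome.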
